A study of Mus musculus with 24 samples.

Results

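The choroid plexus is a sheet of epithelial cells inside the brain ventricles that makes cerebrospinal fluid, and the ependyma is the ciliated cell layer that lines the ventricle walls. The 34 genes described here are known in these tissues. They fall into 6 lists by role: 10 secreted proteins, 10 genes of transport across the epithelium, 3 receptors and enzymes at its surface, 4 genes of junctions, matrix and other membrane functions, 3 transcription factors, and 4 genes of motile cilia. They were chosen by name, with earlier results of these data known. All 34 were matched through their Ensembl identifiers among the 37991 genes of the count table. Choroid plexus epithelium moves ions, water, folate and sulfate between blood and fluid and secretes carriers such as transthyretin. Ependymal cells beat their cilia to move the fluid, a programme run by Foxj1. Neither tissue belongs to the nucleus accumbens, a region of the ventral striatum, but the lateral ventricle lies close to it.

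RNA from tissue punches of mouse nucleus accumbens was sequenced in 24 libraries, 3 in each of 8 groups, and each library pools mRNA of 4 mice. Wild-type C57BL/6J females and males without virus were either controls or stressed. In the other experiment, all females and males were stressed, had the genotype Dnmt3a2lox/2lox on the C57BL/6J background and carried either AAV-GFP or AAV-CRE, an adeno-associated virus for green fluorescent protein or for Cre recombinase, which cuts the floxed Dnmt3a, a DNA methyltransferase gene. The labels describe the libraries as independent biological replicates and name dorsal striatum beside nucleus accumbens for the punches. No source used here gives the promoter that drives Cre, the age of the mice or the extent of the punches. The groups are called control and stressed (wild type), and GFP and Cre (floxed, all stressed).

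Total counts were 7116123 to 12145551 per wild-type library and 28132563 to 59829070 per floxed library. Levels are CPM, counts per 1000000 counts, scaled within each experiment by TMM, a method that evens out differences in composition between libraries. Markers of striatal projection neurons, the main cells of the labelled tissue, summed to 5147 to 8056 CPM in the wild-type libraries and to 2664 to 6527 CPM in the floxed ones. Dnmt3a was at 162, 169 and 155 CPM in GFP females and 155, 150.4 and 139.8 in Cre females, and at 182, 164 and 171 in GFP males and 143, 137 and 138 in Cre males. It was lower with Cre in males (log2 -0.30, SE 0.06, adjusted p = 0.0149 with edgeR's quasi-likelihood test and Benjamini-Hochberg adjustment) and not called in females (log2 -0.12, SE 0.06, adjusted p = 0.829). Its count covers the whole gene, so exons outside the floxed part add to it.

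The promoters of the members were read for motifs of factors known in these tissues. A RefSeq promoter (build GRCm38.p6) was found for 26 of the 34 genes, and the 250 bases before the start of the first entry of each were searched on both strands. RFX factors drive cilia genes, and a 6-base half-site of their motif, GTTGCC, was present in 7 of the 26 (26.9%), against 10.5% of 27025 genes with an entry. Of the 3 cilia genes with an entry, Ccdc153 and Dynlrb2 held it. TAATCC, bound by Otx-type homeodomains, was in 1 of the 26 (3.85%), that of Ace, against 6.38% of all genes, and the forkhead motif TGTTTAC was in 0 of 26, against 3.09%. These shares are not matched for base composition, and a match describes letters and not a bound site. For Aqp1, the start of the first entry was not found in a GENCODE M21 transcript of the gene. The 250 bases of Ccdc153, Dynlrb2, Steap1 and Wfikkn2 overlap annotated exons, and those of Aqp1, Kcne2 and Otx2 overlap none. The 7 windows of 30 bases that hold the half-site are given because they include both cilia genes and Otx2, the choroid plexus regulator among the members. Each is written on the strand of its gene, with the half-site, or its reverse complement, in capitals.
Aqp1 (chr6:55336176-55336205, plus strand): attagagcaacgGTTGCCtcctgcctcctt
Ccdc153 (chr9:44240513-44240542, plus strand): ctgagttttccaGTTGCCtggacaacgtgc
Dynlrb2 (chr8:116504952-116504981, plus strand): acttcctgcctgGTTGCCtagcaacggggg
Kcne2 (chr16:92292268-92292297, plus strand): cgacgtcacacaGGCAACtccgtgccccgc
Otx2 (chr14:48667668-48667697, minus strand): aggcctggatttGTTGCCtgctcttccccc
Steap1 (chr5:5749538-5749567, minus strand): gtcgcccGGCAACaggcgaaatgcacaact
Wfikkn2 (chr11:94242619-94242648, minus strand): agaagggcaggtGTTGCCagccctggagaa
The bases before the start of Kcne2, a potassium channel subunit of the epithelium, are shown whole because this window overlaps no annotated exon and this gene was among those whose levels moved together between libraries. It lies at chr16:92292139-92292388 on the plus strand, and the capitals again mark the half-site, 109 bases before the start.
Kcne2: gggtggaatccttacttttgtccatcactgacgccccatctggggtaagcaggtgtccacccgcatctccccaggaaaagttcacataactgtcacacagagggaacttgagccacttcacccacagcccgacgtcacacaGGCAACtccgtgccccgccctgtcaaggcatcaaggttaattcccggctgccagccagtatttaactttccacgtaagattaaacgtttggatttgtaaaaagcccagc

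The first result is the unevenness of the choroid plexus genes between libraries of the same group. Summed over the 34 genes, the level was 324 to 5431 CPM in the wild-type libraries, with a median of 535, and 338 to 3811 CPM in the floxed ones, with a median of 360. Control male library 3 was the highest of the 12 wild-type libraries for 30 of the 34 genes, although it was the highest for 7.84% of all genes tested. Cre male library 2 was the highest of the 12 floxed libraries for 30 of the 34, and for 19.9% of all genes tested. In bulk tissue, more cells of a type and more RNA per cell cannot be told apart. Reads of the 34 genes made up 0.0323% to 0.525% of a library.

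**Figure D1:**
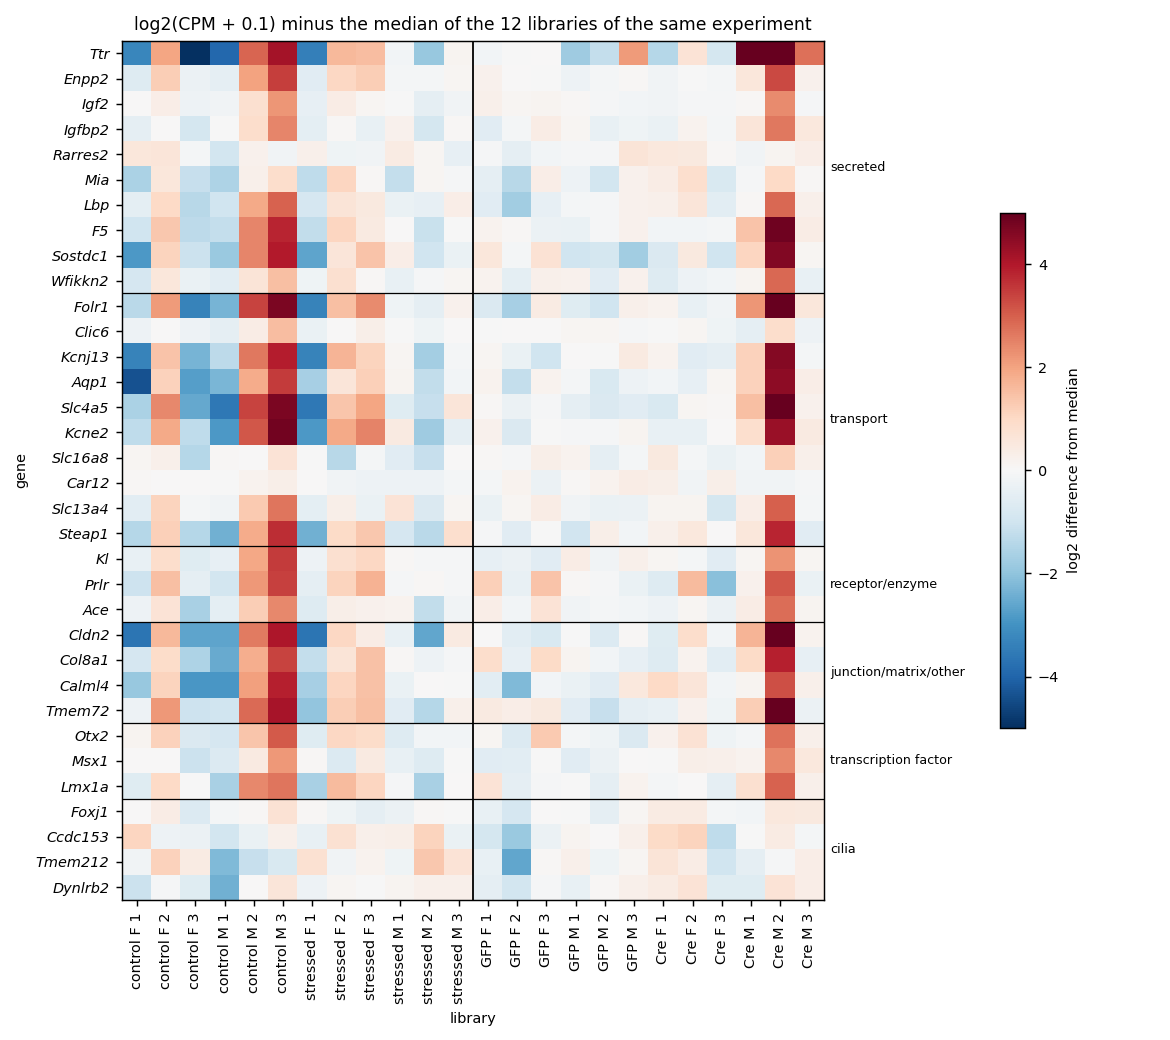
Level of each of the 34 genes (rows, by role) in each of the 24 libraries (columns), as log2 of CPM plus 0.1 after subtracting the gene's median over the 12 libraries of its experiment; the colour scale ends at 5 in either direction. Control male library 3 and Cre male library 2 are red for nearly all genes of the choroid plexus, and the 4 cilia genes at the bottom are paler there, although Foxj1 and Dynlrb2 also have their highest level of each experiment in these libraries.

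In CPM, the secreted proteins spanned the widest range of summed levels of the 6 lists. They ran from 183 to 4698 CPM in the wild-type and from 145 to 3319 CPM in the floxed libraries. In proportion, the junction, matrix and other genes spanned more, from 0.939 to 75.7 CPM and from 1.15 to 42.3 CPM. Ttr encodes transthyretin, the carrier of thyroid hormone that choroid plexus epithelium secretes in bulk. Ttr was at 13.3, 494 and 2.54 CPM in control females, at 8.35, 958 and 2285 in control males, at 11.9, 396 and 372 in stressed females, and at 115, 34.2 and 140.4 in stressed males. Among the floxed libraries it was at 3.15, 3.45 and 3.48 CPM in GFP females, at 0.952, 1.48 and 15.3 in GFP males, at 1.21, 5.59 and 1.81 in Cre females, and at 125, 1847 and 23.8 in Cre males. Levels within a group thus differed widely, and 5 wild-type libraries (control female 2, control male 2 and 3, stressed female 2 and 3) and Cre male library 2 exceeded 300 CPM. The 3 GFP females were alike, at 3.36 ± 0.184 CPM (SD, n = 3). Ttr alone took from 0.282% of the member counts in GFP male library 1 to 48.5% in Cre male library 2.

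Enpp2 encodes autotaxin, a secreted enzyme that makes lysophosphatidic acid and is also known from oligodendrocytes. Enpp2 was at 119.8, 431 and 149.5 CPM in control females, at 136, 752 and 2056 in control males, at 125, 380.3 and 432 in stressed females, and at 173, 174 and 198 in stressed males. In floxed mice it was at 141, 125 and 121 CPM in GFP females, at 102, 114 and 127 in GFP males, at 107, 119.5 and 114 in Cre females, and at 183, 1204 and 142 in Cre males. It was never below 101.6 CPM, so its low libraries lay on a plateau, while its high libraries were those of Ttr. Per kilobase of exon, the mean level over the 24 libraries was 241 CPM for Ttr and 55.7 for Enpp2, the highest of the 34 genes, followed by Car12 at 11.2. By the median over libraries the order was Enpp2 at 24.5 CPM per kilobase, Ttr at 12.1 and Car12 at 10.8.

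Igf2, an insulin-like growth factor also made by meninges, was at 44.5, 55.8 and 37.3 CPM in control females, at 38.6, 76.2 and 206 in control males, at 32.8, 56.98 and 47.7 in stressed females, and at 43.6, 32.01 and 39.4 in stressed males. Its floxed libraries were at 29.2, 26.5 and 27.3 CPM in GFP females, at 25.6, 23.6 and 22.5 in GFP males, at 22.1, 23.4 and 23.73 in Cre females, and at 25.7, 127 and 23.4 in Cre males. Control male library 3 and Cre male library 2 stood alone, at 4.72 and 5.36 times the median of the other 11 libraries of their experiment. Igfbp2, which binds insulin-like growth factors, was at 6.99, 9.67 and 5.17 CPM in control females, at 9.599, 17.8 and 52.4 in control males, at 6.77, 9.9995 and 7.51 in stressed females, and at 11.3, 5.21 and 10.04 in stressed males. With virus it was at 4.06, 5.58 and 7.78 CPM in GFP females, at 6.53, 4.68 and 5.12 in GFP males, at 4.75, 6.81 and 5.56 in Cre females, and at 9.28, 38.3 and 8.85 in Cre males. The same libraries were highest, and all 3 Cre males lay above the 3 GFP males.

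F5 encodes coagulation factor V. F5 was at 1.93, 10.2 and 1.52 CPM in control females, at 1.67, 21.5 and 56.2 in control males, at 1.63, 8.44 and 5.43 in stressed females, and at 3.92, 1.74 and 3.89 in stressed males. Floxed libraries were at 1.54, 1.42 and 1.09 CPM in GFP females, at 1.05, 1.31 and 1.61 in GFP males, at 1.24, 1.25 and 1.27 in Cre females, and at 3.87, 42.5 and 1.79 in Cre males, and Cre male library 2 was 32.4 times the median of the others. Sostdc1, a secreted antagonist of BMP and Wnt signals, was at 0.101, 3.09 and 0.609 CPM in control females, at 0.313, 8.03 and 23.1 in control males, at 0.135, 2.19 and 3.895 in stressed females, and at 1.77, 0.651 and 1.08 in stressed males. In the floxed groups Sostdc1 was at 0.887, 0.531 and 1.002 CPM in GFP females, at 0.238, 0.269 and 0.102 in GFP males, at 0.303, 0.855 and 0.239 in Cre females, and at 1.32, 16.7 and 0.615 in Cre males. The 3 Cre males were above all 3 GFP males, but Cre male library 3 was within the range of the females. Lbp, a lipopolysaccharide-binding protein, and Wfikkn2, a secreted protein that binds growth differentiation factors, were also highest in control male library 3 (14.4 and 2.47 CPM) and in Cre male library 2 (32.8 and 3.91 CPM).

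Rarres2 and Mia, the remaining secreted members, did not have their highest wild-type level in control male library 3. Rarres2, which encodes the chemoattractant chemerin, was at 3.04, 3.19 and 1.93 CPM in control females, at 1.04, 2.39 and 1.79 in control males, at 2.44, 1.77 and 1.81 in stressed females, and at 2.75, 2.17 and 1.51 in stressed males. With virus Rarres2 was at 3.98, 3.01 and 3.802 CPM in GFP females, at 4.01, 3.94 and 6.47 in GFP males, at 6.07, 5.81 and 4.27 in Cre females, and at 3.66, 4.56 and 5.22 in Cre males. Its highest libraries were control female 2 and GFP male 3, and no library exceeded the median of the others in its experiment by more than 1.66 times. Mia, a small secreted protein first known from melanoma and cartilage, was at 0.203, 1.23 and 0.304 CPM in control females, at 0.209, 0.977 and 1.53 in control males, at 0.271, 1.77 and 0.835 in stressed females, and at 0.294, 0.868 and 0.756 in stressed males. Stressed female library 2 was the highest, followed by control male 3, control female 2 and control male 2, all with Ttr above 300 CPM. In floxed mice Mia was at 0.315, 0.118 and 0.619 CPM in GFP females, at 0.374, 0.202 and 0.561 in GFP males, at 0.632, 0.926 and 0.239 in Cre females, and at 0.448, 1.05 and 0.498 in Cre males.

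**Figure D2:**
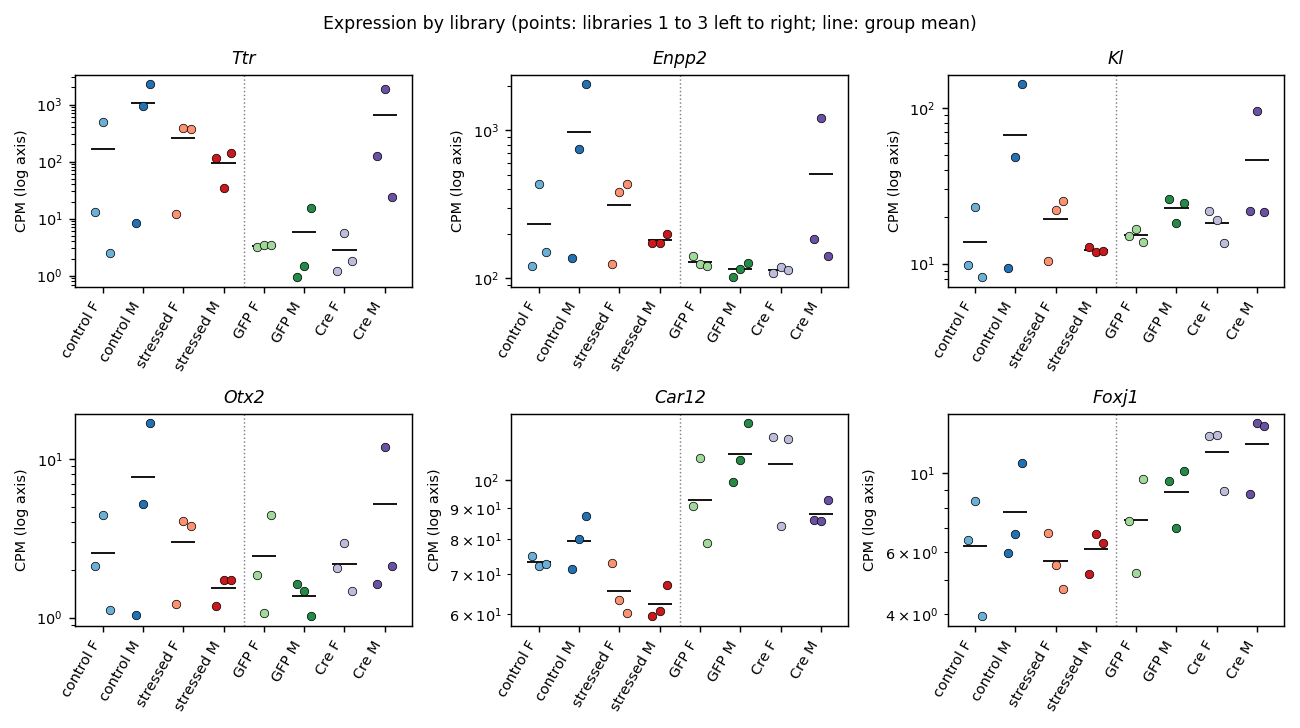
Level in CPM (log axes) of Ttr, Enpp2, Kl, Otx2, Car12 and Foxj1 in each library, by group, with libraries 1 to 3 from left to right and the group mean as a line; the dotted line separates the wild-type from the floxed experiment. Ttr runs from 8.35 to 2285 CPM within control males, while Car12 stays within 59.5 to 124 CPM over all 24 libraries.

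All 10 transport genes had their highest wild-type level in control male library 3, and all but Car12 their highest floxed level in Cre male library 2. The excess over the other libraries was small for Car12, Slc16a8 and Clic6. Slc4a5, a sodium bicarbonate cotransporter, was at 0.304, 6.28 and 0.101 CPM in control females, at 0, 12.4 and 31.2 in control males, at 0, 3.02 and 4.59 in stressed females, and at 0.687, 0.434 and 1.73 in stressed males. Floxed libraries had Slc4a5 at 0.486, 0.354 and 0.442 CPM in GFP females, at 0.306, 0.236 and 0.2804 in GFP males, at 0.228, 0.499 and 0.477 in Cre females, and at 1.502, 17.9 and 0.557 in Cre males. Kcne2 was at 0.203, 2.57 and 0.203 CPM in control females, at 0, 6.19 and 20.3 in control males, at 0, 2.604 and 3.895 in stressed females, and at 0.883, 0.109 and 0.432 in stressed males. In floxed mice Kcne2 was at 0.429, 0.177 and 0.354 CPM in GFP females, at 0.3399, 0.337 and 0.408 in GFP males, at 0.253, 0.249 and 0.358 in Cre females, and at 0.712, 8.86 and 0.528 in Cre males. A count of 0 in a library allows up to 0.247 to 0.422 CPM in the wild-type experiment and 0.0501 to 0.107 CPM in the floxed one (3 counts, counting error only), so a listed 0 does not show that a gene was absent. Both genes were below 2 CPM in all libraries with Ttr at or under 300 CPM. Slc13a4, a sulfate transporter, was at 2.43, 7.61 and 3.25 CPM in control females, at 3.13, 8.902 and 23.1 in control males, at 2.44, 4.27 and 2.78 in stressed females, and at 5.69, 2.06 and 3.78 in stressed males, and kept a base level of 2.06 CPM or more. With virus, Slc13a4 was at 1.54, 2.13 and 2.59 CPM in GFP females, at 1.73, 1.55 and 1.58 in GFP males, at 2.17, 2.17 and 1.03 in Cre females, and at 2.504, 16.3 and 1.82 in Cre males.

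Folr1, the folate receptor that carries folate into the fluid, reached 26.6 CPM in control male library 3 and 18.9 CPM in Cre male library 2. The medians of the other 11 libraries were 0.785 and 0.263 CPM. The water channel Aqp1, the potassium channel Kcnj13 and the reductase family member Steap1 had the same highest libraries, at 22.6, 15.3 and 6.81 CPM in control male library 3 and at 15.2, 4.78 and 2.61 CPM in Cre male library 2.

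Car12, a carbonic anhydrase, was at 74.9, 72.03 and 72.7 CPM in control females, at 71.3, 79.9 and 87.3 in control males, at 72.9, 63.4 and 60.4 in stressed females, and at 59.5, 60.7 and 66.96 in stressed males. In floxed mice Car12 was at 90.8, 109 and 78.9 CPM in GFP females, at 99.4, 108 and 124 in GFP males, at 118, 84.2 and 117 in Cre females, and at 85.95, 85.5 and 92.7 in Cre males. The highest library exceeded the median of the others by 1.22 times in wild-type mice and 1.34 times in floxed mice. Clic6, an intracellular chloride channel family member, was at 29.5, 35.6 and 29.3 CPM in control females, at 25.1, 45.4 and 103 in control males, at 27.4, 35.4 and 42.8 in stressed females, and at 34.2, 29.8 and 35.5 in stressed males. Its floxed libraries were at 31.04, 31.4 and 31.8 CPM in GFP females, at 33.2, 32.9 and 30.03 in GFP males, at 30.9, 33.2 and 26.95 in Cre females, and at 22.9, 57.9 and 26.3 in Cre males, and its highest libraries were 3.01 and 1.87 times the median of the others. Slc16a8, a lactate transporter, stayed between 0.609 and 3.04 CPM in all libraries, and its highest libraries were 1.69 and 2.45 times the median of the others.

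All 3 receptor and enzyme genes had a base level in each library and a peak in the libraries rich in Ttr. Kl encodes klotho, a co-receptor for fibroblast growth factor 23 and a secreted hormone. Kl was at 9.73, 23.3 and 8.22 CPM in control females, at 9.39, 48.3 and 143 in control males, at 10.4, 22.1 and 25.5 in stressed females, and at 12.8, 11.8 and 12.1 in stressed males. With virus Kl was at 15.1, 16.7 and 13.7 CPM in GFP females, at 26.03, 18.1 and 24.5 in GFP males, at 21.7, 19.2 and 13.5 in Cre females, and at 21.7, 96.1 and 21.5 in Cre males, and 2 of the 3 Cre males were inside the range of the GFP males. Prlr, the prolactin receptor, was at 2.53, 14.9 and 3.85 CPM in control females, at 2.71, 23.99 and 57.2 in control males, at 3.79, 11.6 and 17.9 in stressed females, and at 5.0999, 5.43 and 5.08 in stressed males. Prlr was at 8.18, 2.69 and 9.64 CPM in GFP females, at 3.67, 3.43 and 2.804 in GFP males, at 2.22, 10.7 and 0.764 in Cre females, and at 4.09, 31.1 and 2.81 in Cre males. GFP female libraries 1 and 3 and Cre female library 2 were also high. Ace, the angiotensin-converting enzyme, was at 12.5, 24.3 and 4.87 CPM in control females, at 10.6, 35.1 and 79.2 in control males, at 9.48, 18.6 and 17.5 in stressed females, and at 16.97, 6.403 and 13.3 in stressed males. In floxed mice Ace was at 9.15, 6.7003 and 11.9 CPM in GFP females, at 6.49, 6.73 and 6.58 in GFP males, at 6.02, 7.87 and 5.85 in Cre females, and at 9.54, 51.6 and 8.09 in Cre males.

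The 4 genes of the junctions, the matrix and other membrane functions had the lowest single-library sum of the 6 lists in each experiment. Their sum fell to 0.939 CPM among the wild-type and to 1.15 CPM among the floxed libraries. Their median sum over the wild-type libraries was nevertheless above that of the transcription factors. Single genes of other lists were at 0 as well, such as Folr1, Kcnj13, Slc4a5, Kcne2 and Steap1 in stressed female library 1. Cldn2, a pore-forming claudin of the leaky choroid plexus barrier, was at 0, 3.81 and 0.101 CPM in control females, at 0.104, 7.49 and 21.03 in control males, at 0, 2.4999 and 1.53 in stressed females, and at 0.883, 0.109 and 1.62 in stressed males. Cldn2 was at 0.172, 0.0886 and 0.0589 CPM in GFP females, at 0.1699, 0.0673 and 0.178 in GFP males, at 0.0758, 0.392 and 0.143 in Cre females, and at 0.791, 9.53 and 0.205 in Cre males. Tmem72, a transmembrane protein, was at 1.11, 6.38 and 0.609 CPM in control females, at 0.626, 10.2 and 25.1 in control males, at 0.271, 3.33 and 4.03 in stressed females, and at 0.883, 0.434 and 1.62 in stressed males. Its floxed libraries were at 0.515, 0.472 and 0.5305 CPM in GFP females, at 0.204, 0.101 and 0.229 in GFP males, at 0.253, 0.428 and 0.286 in Cre females, and at 0.949, 14.3 and 0.264 in Cre males. Both were above 1 CPM in the 5 wild-type libraries rich in Ttr, in stressed male library 3 and in Cre male library 2, and Tmem72 also in control female library 1. Col8a1, a collagen VIII chain, was at 0.912, 3.29 and 0.507 CPM in control females, at 0.209, 6.19 and 18.6 in control males, at 0.677, 2.71 and 4.87 in stressed females, and at 1.77, 1.41 and 1.62 in stressed males. In floxed mice Col8a1 was at 1.52, 0.561 and 1.59 CPM in GFP females, at 0.8497, 0.707 and 0.561 in GFP males, at 0.455, 0.891 and 0.501 in Cre females, and at 1.58, 12.96 and 0.557 in Cre males. Calml4, a calmodulin-like protein, was at 0.101, 1.54 and 0 CPM in control females, at 0, 3.04 and 10.98 in control males, at 0.135, 1.46 and 1.95 in stressed females, and at 0.4904, 0.651 and 0.648 in stressed males. Calml4 was at 0.315, 0.0295 and 0.442 CPM in GFP females, at 0.374, 0.303 and 0.765 in GFP males, at 1.09, 0.819 and 0.454 in Cre females, and at 0.554, 5.55 and 0.615 in Cre males, and Cre female library 1 was second to Cre male library 2.

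All 3 transcription factors were highest in control male library 3 and in Cre male library 2. Summed, they were at 1.88 to 25.4 CPM in the wild-type libraries and at 1.80 to 19.2 CPM in the floxed ones. Otx2, a homeobox factor needed for choroid plexus development and upkeep, was at 2.13, 4.42 and 1.12 CPM in control females, at 1.04, 5.21 and 16.8 in control males, at 1.22, 4.06 and 3.76 in stressed females, and at 1.18, 1.74 and 1.73 in stressed males. Otx2 was at 1.86, 1.06 and 4.45 CPM in GFP females, at 1.63, 1.48 and 1.02 in GFP males, at 2.05, 2.96 and 1.48 in Cre females, and at 1.63, 11.98 and 2.11 in Cre males, and GFP female library 3 was second to Cre male library 2. Msx1, a homeobox factor of the dorsal midline, was at 1.42, 1.44 and 0.609 CPM in control females, at 0.835, 1.95 and 6.73 in control males, at 1.49, 0.833 and 1.95 in stressed females, and at 1.08, 0.868 and 1.404 in stressed males. With virus Msx1 was at 0.715, 0.738 and 1.09 CPM in GFP females, at 0.714, 0.875 and 1.096 in GFP males, at 1.09, 1.35 and 1.34 in Cre females, and at 1.24, 6.25 and 1.64 in Cre males. Lmx1a, a homeobox factor of the roof plate from which the plexus arises, was at 0.101, 0.514 and 0.203 CPM in control females, at 0, 1.52 and 1.87 in control males, at 0, 0.833 and 0.556 in stressed females, and at 0.196, 0 and 0.216 in stressed males. In floxed mice Lmx1a was at 0.114, 0 and 0.0295 CPM in GFP females, at 0.03399, 0 and 0.05098 in GFP males, at 0.0253, 0.0356 and 0 in Cre females, and at 0.132, 0.935 and 0.0586 in Cre males, too low for the test in either experiment.

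Of the 4 cilia genes, Foxj1 and Dynlrb2 were highest in control male library 3 and in Cre male library 2, by smaller factors than Ttr, and Ccdc153 and Tmem212 were highest elsewhere. Foxj1, the master regulator of motile cilia, was at 6.49, 8.33 and 3.96 CPM in control females, at 5.95, 6.73 and 10.7 in control males, at 6.77, 5.52 and 4.73 in stressed females, and at 5.198, 6.73 and 6.37 in stressed males. In floxed mice Foxj1 was at 7.35, 5.22 and 9.61 CPM in GFP females, at 9.48, 7.03 and 10.1 in GFP males, at 12.8, 12.9 and 8.905 in Cre females, and at 8.75, 13.8 and 13.6 in Cre males. The highest library was 1.68 times the median of the others in wild-type mice and 1.46 times in floxed mice. Ccdc153, a coiled-coil protein of motile cilia, was at 2.74, 1.03 and 1.01 CPM in control females, at 0.626, 0.977 and 1.53 in control males, at 0.948, 2.19 and 1.53 in stressed females, and at 1.57, 2.82 and 0.972 in stressed males. Ccdc153 was at 1.14, 0.531 and 1.798 CPM in GFP females, at 2.45, 2.25 and 2.68 in GFP males, at 4.399, 4.85 and 0.859 in Cre females, and at 2.16, 2.94 and 2.08 in Cre males, highest in Cre female libraries 1 and 2. Tmem212, a marker of ependymal cells, was at 0.304, 0.926 and 0.507 CPM in control females, at 0, 0.109 and 0.1703 in control males, at 0.677, 0.312 and 0.417 in stressed females, and at 0.294, 1.09 and 0.648 in stressed males. Its floxed libraries stood at 1.49, 0.236 and 2.004 CPM in GFP females, at 2.31, 1.65 and 2.09 in GFP males, at 3.08, 2.53 and 0.907 in Cre females, and at 1.397, 1.85 and 2.43 in Cre males, and Cre female library 1 was the highest. Dynlrb2, a dynein light chain, was at 0.405, 0.926 and 0.609 CPM in control females, at 0.104, 0.977 and 1.53 in control males, at 0.813, 1.04 and 0.974 in stressed females, and at 1.08, 1.19 and 1.19 in stressed males. In the floxed groups Dynlrb2 was at 0.801, 0.561 and 1.09 CPM in GFP females, at 0.8497, 1.18 and 1.38 in GFP males, at 1.54, 1.89 and 0.716 in Cre females, and at 0.712, 1.904 and 1.44 in Cre males. For Dynlrb2 the highest libraries were 1.57 and 1.75 times the median of the others. Summed, the cilia genes were at 6.09 to 14.0 CPM in the wild-type libraries and at 6.55 to 22.1 CPM in the floxed ones.

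The proportions between the choroid plexus genes were compared in the 6 libraries with Ttr above 300 CPM, as reads per 100 Ttr reads, a ratio that needs no scaling between libraries. Kl was at 4.71 to 6.84 reads per 100 Ttr reads, Igfbp2 at 1.86 to 2.53 and Aqp1 at 0.760 to 1.23. Folr1 was at 0.711 to 1.38 and Slc4a5 at 0.764 to 1.36. Enpp2 was at 65.2 to 116 reads per 100 Ttr reads. Of the 33 genes other than Ttr, 12 stayed within a 2-fold range over these libraries, and the median range was 2.24-fold. By role, the median range was 1.76-fold for receptors and enzymes, 1.88-fold for junction, matrix and other genes, 2.09-fold for secreted proteins, 2.28-fold for transport, 2.56-fold for transcription factors and 6.09-fold for cilia genes. The widest ranges were those of Tmem212 (25.2-fold), Rarres2 (8.25-fold) and Ccdc153 (8.25-fold). They rest on few reads in the 5 wild-type libraries compared, 1 to 9 for Tmem212, 13 to 31 for Rarres2 and 9 to 21 for Ccdc153. Dynlrb2, another cilia gene, had 7 to 18 reads there. Counting error thus adds to these ranges and to the median range of the cilia genes. The 6 libraries come from both experiments and from 4 groups, and they were chosen by their Ttr level, so the ratios are a description.

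**Figure D3:**
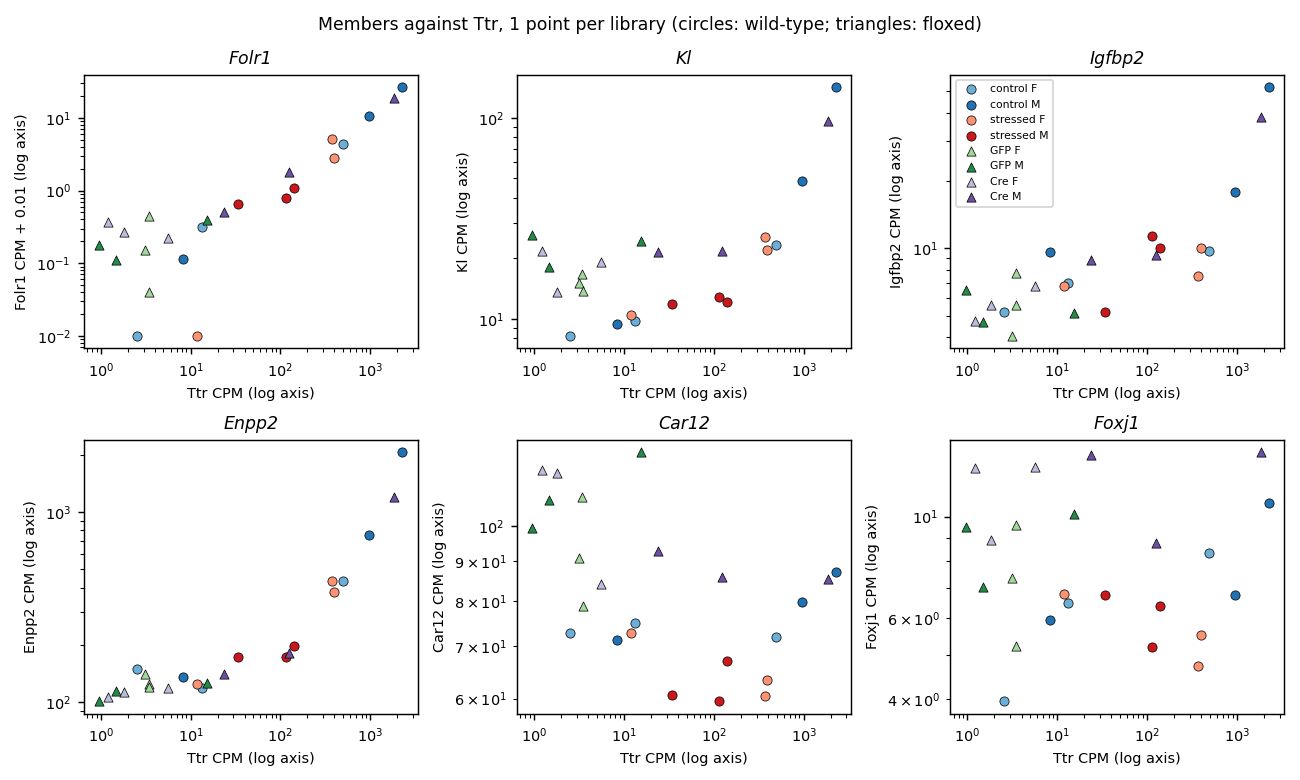
Level of Folr1, Kl, Igfbp2, Enpp2, Car12 and Foxj1 (vertical, CPM) against Ttr (horizontal, CPM) in each of the 24 libraries, on log axes, with 0.01 added to Folr1; circles are wild-type and triangles floxed libraries, coloured by group. In the 3 libraries with the most Ttr (958 to 2285 CPM), Folr1, Kl, Igfbp2 and Enpp2 are each above their level in the other 21 libraries, which does not hold for Car12 and Foxj1.

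Stress was first compared in wild-type females. Of the 32 members tested, 25 had a positive and 7 a negative log2 difference (stressed minus control), with a median of 0.26, against 48.7% positive and a median of -0.01 over 15249 genes. No member passed with edgeR's quasi-likelihood test (0% of the genes tested passed) or with DESeq2 (0.00688%), and 0 of the 32 had an unadjusted p below 0.05, against 1.68% of all genes. Members without overlap between the groups numbered 0, against 2.72% of genes higher and 2.58% lower. Smallest in p were Car12 (log2 -0.16, SE 0.12), Rarres2 (log2 -0.44, SE 0.34) and Mia (log2 0.78, SE 0.80), all with an adjusted p of 1.00 by edgeR. Ttr differed by log2 0.61 with an SE of 1.91. The median of the members was 1.21 without control female library 2 and 0.03 without control female library 3, so the difference in females was within the spread between libraries.

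In wild-type males the differences were large and negative, and none passed. Of the 32 members tested, 29 had a negative log2 difference and 3 a positive one (Rarres2, Ccdc153 and Dynlrb2), with a median of -2.36, against 50.3% negative and a median of 0.00 over all genes. By role the medians were -2.80 for the 10 transport genes, -1.88 for the 10 secreted proteins and -2.43 for the 3 receptors and enzymes. They were -3.22 for the 4 junction, matrix and other genes, -1.93 for the 2 transcription factors tested and 0.36 for the 3 cilia genes tested. The count called was 0 with edgeR (0.00656% of genes passed) and 0 with DESeq2 (0.0138%). An unadjusted p below 0.05 was found for 23 of the 32, all negative, against 2.81% of all genes. Smallest in p were Igf2 (log2 -1.48, SE 0.44), Igfbp2 (log2 -1.59, SE 0.49) and Kl (log2 -2.45, SE 0.75), each with an adjusted p of 1.00 by edgeR's quasi-likelihood test with Benjamini-Hochberg adjustment. Ttr had a wider error (log2 -3.49, SE 2.09).

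The control males differed among themselves. Control male libraries 2 and 3 were above all 3 stressed males for 30 and 31 of the 34 genes, while control male library 1 was below all 3 stressed males for 24 and above them for 2. Only Car12 and Slc16a8 had all 3 controls above all 3 stressed males, 2 of 32 members tested, against 4.24% of genes lower without overlap. Without control male library 3 the median was -1.10, and without control male library 1 it was -2.95. No member passed in either fit. For Kl the log2 difference was -1.22 without control male library 3 and -2.96 without library 1.

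Levels of other tissues were read beside these differences. Blood markers (5 genes) summed to 64.7 to 73.6 CPM in the 4 wild-type libraries numbered 1 and to 18.7 to 38.3 CPM in the other 8. Control female 1, control male 1 and stressed female 1 were also low in Ttr, at 8.35 to 13.3 CPM, but stressed male 1 was at 115 and control female 3 was at 2.54. Among libraries with the number 1, Ttr was thus higher in the stressed than in the control males, and among those with the numbers 2 and 3 it was lower. Meningeal markers (16 genes, none at 0 in all libraries of a group) summed to 59.8 to 87.0 CPM in control males and 58.7 to 78.9 CPM in stressed males, with a median log2 difference of 0.02. Cortical excitatory neuron markers (7 genes) were negative for 7 of 7 in stressed against control females, with a median log2 of -1.36. Of these markers, 5 had an unadjusted p below 0.05, against 1.68% of all genes, and 0 were called. They summed to 152 CPM in control female library 2, the control female with the most Ttr, and to 14.8 to 59.7 CPM in the other 5 libraries of females. In males they were negative for 4 of 7, with a median of -0.23. The part of tissue composition in the differences of the members was not tested.

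Further genes of both tissues were read from lists that share no gene with the members. These lists were chosen with earlier results of these data known and read in the same libraries, so they are not a separate test. Of 26 further choroid plexus genes, 22 were tested and 22 had a negative difference in males (median log2 -0.85), against 50.3% of all genes. An unadjusted p below 0.05 was found for 12, against 2.81% of all genes, and 0 were called. Smallest in p were the keratin Krt18 (log2 -3.32, SE 1.13), the anion exchanger Slc4a2 (log2 -0.89, SE 0.30) and Oca2 (log2 -2.59, SE 0.91). Of 35 further cilia genes, 31 were tested, with 19 negative and a median of -0.12. An unadjusted p below 0.05 was found for 1 of the 31, close to the share of 2.81% over all genes, and 0 were called. This was Fam183b, with a positive difference (log2 2.46, SE 0.52, unadjusted p = 0.000373, adjusted p = 1.00 by edgeR). Fam183b was at 0.313, 0.543 and 0.0851 CPM in control males and 2.06, 1.74 and 1.296 CPM in stressed males. The groups did not overlap, and 3.67% of all genes were higher without overlap. Its levels in control males, below 1 CPM, rest on few reads.

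The difference in the stress effect between the sexes was tested by interaction. For 30 of 32 members it was positive (female effect minus male effect), with a median of 2.72, against 49.5% positive over all genes. None was called by edgeR (0% of genes) or DESeq2 (0%), and 12 had an unadjusted p below 0.05, against 1.19% of genes. Smallest in p were Kl (log2 2.94, SE 1.06), Enpp2 (2.85, SE 1.13) and Kcne2 (5.30, SE 2.12), with an adjusted p of 1.00. Averaged over control and stressed mice, 30 of 32 members had a negative log2 difference (female minus male; median -0.63), 0 were called (0.0393% of genes), by DESeq2 also 0 (0.0807%), and 1 had an unadjusted p below 0.05 (5.03% of genes). This was Igfbp2, at log2 -0.999 (SE 0.36, adjusted p = 0.971 by edgeR). Next in p were Slc13a4 (log2 -0.84, SE 0.45) and Igf2 (log2 -0.48, SE 0.31).

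**Figure D4:**
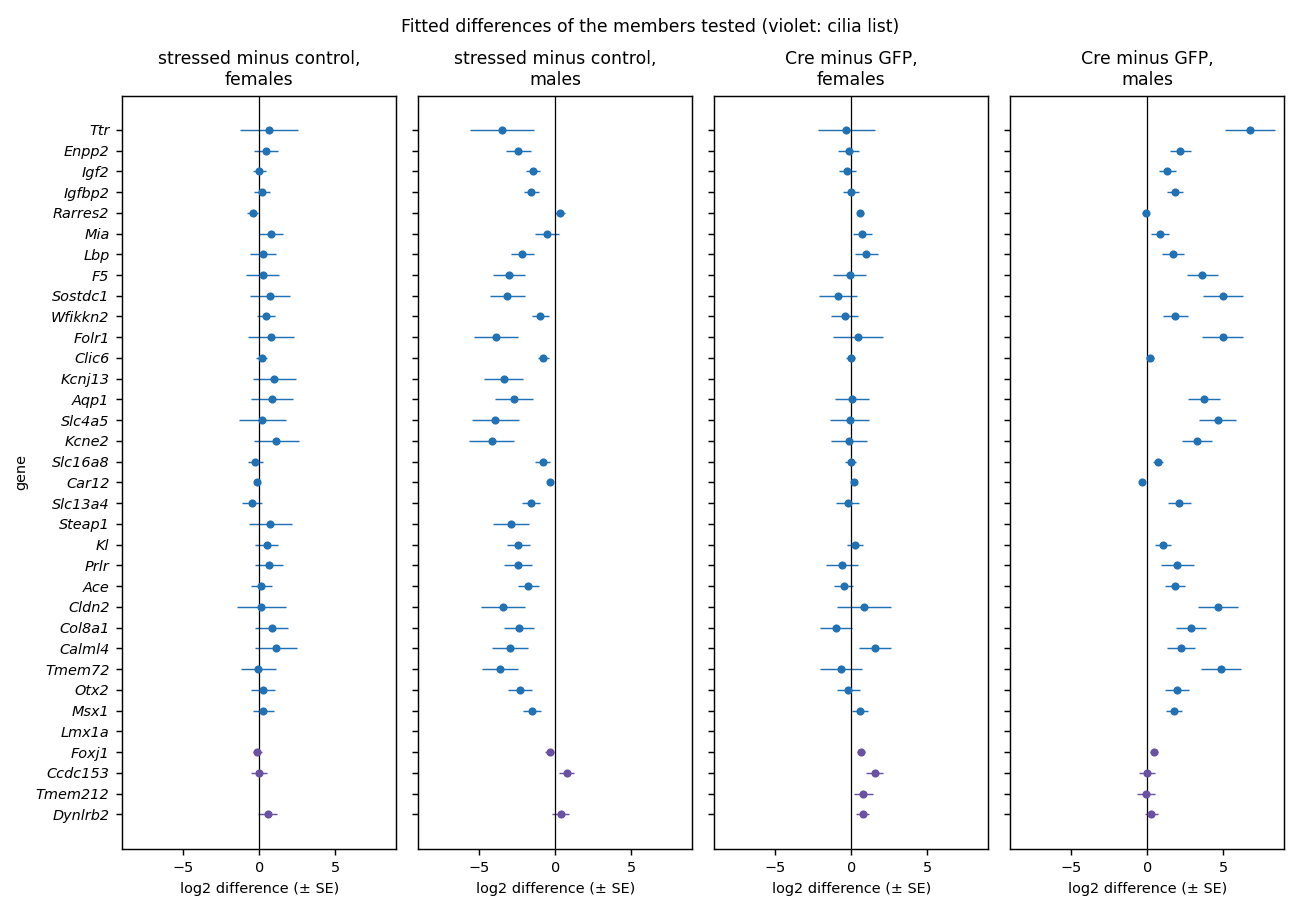
Log2 difference and SE (points and bars) of each member tested, for stressed minus control and Cre minus GFP in each sex; cilia genes are violet and an empty row marks a gene not tested. Of the choroid plexus genes, 28 of 29 lie left of 0 in stressed males, down to -4.17 (Kcne2), with Rarres2 right of 0, and 25 of 27 lie right of 0 in Cre males, up to 6.73 (Ttr), with Car12 and Rarres2 left of 0; the cilia genes lie between -0.36 and 0.74 in both comparisons of males.

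Cre was compared with GFP within the stressed floxed mice. In females, 14 of the 31 members tested were positive and 17 negative, with a median log2 of -0.05, against a median of 0.00 over 17597 genes. None was called by edgeR (0% of genes) or DESeq2 (0.165%). An unadjusted p below 0.05 was found for 3 (5.96% of genes), which were Ccdc153 (log2 1.53, SE 0.56), Rarres2 (log2 0.58, SE 0.22) and Foxj1 (log2 0.64, SE 0.25), with adjusted p from 0.783 to 0.796 by edgeR. Rarres2 and Calml4 were higher in all 3 Cre females than in all 3 GFP females, 2 members against 6.5% of genes. Enpp2, Tmem72 and Igf2 were lower without overlap, 3 members against 5.04% of genes. Enpp2 differed by log2 -0.18 (SE 0.66).

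The cilia genes were positive in the Cre females, 4 of 4, with a median log2 of 0.77. Cre female libraries 1 and 2 were above all 3 GFP females for all 4 genes, and Cre female library 3 for none. Of the 35 further cilia genes, 32 were positive (median log2 0.33), against 50.1% of all genes tested, and 0 were called. An unadjusted p below 0.05 was found for 2 of the 35, close to the share of 5.96% over all genes. These were Spag17 (log2 1.20, SE 0.53) and Spag16 (log2 0.77, SE 0.35), both of the central apparatus of the cilium. The 35 genes summed to 408, 368 and 282 CPM in the 3 Cre females and 335, 299 and 327 CPM in the 3 GFP females, so the third Cre library was below all GFP libraries. Beside this, meningeal markers were negative in 13 of 15 tested, with a median of -0.20, and summed to 58.6 to 67.2 CPM in Cre females and 64.9 to 69.5 in GFP females. Their part in the result was not tested.

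In males, 27 of the 31 members tested were positive and 4 negative, with a median log2 of 1.84, against a median of 0.00 and 50.9% positive over all genes. By role the medians were 2.67 for the 8 transport genes tested, 1.82 for the 10 secreted proteins and 1.82 for receptors and enzymes. They were 3.75 for junction, matrix and other genes, 1.87 for the 2 transcription factors tested and 0.11 for the 4 cilia genes. With edgeR 0 members were called, although 4.96% of all genes passed, and 21 members had an unadjusted p below 0.05 (20 positive and 1 negative), against 24.8% of all genes. Closest to the threshold were Ttr (log2 6.73, SE 1.66, adjusted p = 0.0509), Sostdc1 (log2 4.98, SE 1.30, adjusted p = 0.0578) and Slc4a5 (log2 4.61, SE 1.20, adjusted p = 0.0579). DESeq2 called 14 members, all higher, against 11.3% of the genes it tested: Ace, Aqp1, Cldn2, Col8a1, Enpp2, F5, Folr1, Igfbp2, Msx1, Slc13a4, Slc4a5, Sostdc1, Tmem72 and Ttr. For Ttr it gave log2 6.81 with an adjusted p of 4.36e-05.

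The 3 Cre males contributed unequally. Cre male library 2 was above all 3 GFP males for 31 of the 34 genes, and Cre male libraries 1 and 3 for 21 each. All 3 were above all 3 GFP males for 15 of the 31 members tested, where 14.7% of genes were higher without overlap. Car12 was the member lower without overlap (14.7% of genes were lower), at log2 -0.33 (SE 0.14, adjusted p = 0.186 by edgeR). Without Cre male library 2, 0 members were called (1.91% of genes) and the median was 0.42. In that fit Ttr was at log2 3.59 (adjusted p = 0.152), Slc4a5 at 1.90 (adjusted p = 0.0532) and Sostdc1 at 2.28 (adjusted p = 0.0714), all by edgeR, while Kl was at -0.08. Without Cre male library 3, 15 members were called (7.29% of genes), and without Cre male library 1 only Msx1 (1.78% of genes; log2 2.15, adjusted p = 0.047).

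Markers of other tissue moved with the Cre males. The 7 cortical excitatory neuron markers were all called higher by edgeR, where 4.96% of all genes tested were called. They summed to 559, 559 and 220 CPM in Cre males and to 4.28 to 21.2 CPM in GFP males, and no gene of the list was at 0 throughout a group. Striatal projection neuron markers summed to 2664 CPM in Cre male library 2, against 5049 and 5441 CPM in the other Cre males and 5410 to 5841 CPM in GFP males. Blood markers summed to 12.4 to 23.3 CPM in Cre males and 24.3 to 29.2 CPM in GFP males. Meningeal markers summed to 73.2 CPM in Cre male library 2 and to 51.3 to 59.9 CPM in the other 5 libraries of males. Oligodendrocyte markers (5 genes) summed to 5225 CPM in Cre male library 2 and to 3085 to 4124 CPM in the other 11 floxed libraries, with 5 of 5 positive in Cre against GFP males (median log2 0.21, 0 called). Astrocyte markers were also positive for 5 of 5 (median log2 0.15, 0 called), and Gfap had the widest difference of them (log2 1.09, SE 0.36, unadjusted p = 0.0137, adjusted p = 0.110 by edgeR). The part of cortical or other neighbouring tissue, or of glia, in the levels of the members was not tested.

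Of the 26 further choroid plexus genes, 25 were tested and 24 were positive in Cre males, against 50.9% of all genes, with a median log2 of 0.74. The count called was 1 of 25, against 4.96% of all genes tested, and this was the claudin Cldn1 (log2 2.06, SE 0.50, adjusted p = 0.0406 by edgeR). Cldn1 was at 0.918, 0.909 and 1.12 CPM in GFP males and 2.66, 7.89 and 1.6998 CPM in Cre males, so the 3 Cre libraries were above the GFP libraries, with library 2 far above the others. Next in p were Perp, a junction protein of epithelia (log2 -0.53, SE 0.14), and 1500015O10Rik (log2 3.15, SE 0.99). The further cilia genes had 20 of 35 positive and a median of 0.03.

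The difference in the Cre effect between the sexes had a negative sign (female effect minus male effect) in 25 of 31 members, with a median log2 of -2.16. None was called by edgeR (0.0114% of genes), and 12 had an unadjusted p below 0.05 (17.5% of genes). Smallest in p were Sostdc1 (log2 -5.85, SE 1.80, adjusted p = 0.173 by edgeR), Ttr (log2 -7.05, SE 2.42, adjusted p = 0.203) and Tmem72 (log2 -5.51, SE 1.92, adjusted p = 0.204). DESeq2 called these 3 and Slc4a5, against 3.66% of genes. Without Cre male library 2 the median was -0.65. Averaged over GFP and Cre, 30 of 31 members had a negative log2 difference (female minus male), with a median of -0.82, and 0 were called by edgeR (0.0682% of genes), where 5 had an unadjusted p below 0.05 (6.68% of genes). Smallest in p were Ttr (log2 -4.43, SE 1.19), Kl (log2 -0.98, SE 0.38) and F5 (log2 -1.84, SE 0.74). DESeq2 called Ttr (log2 -4.33, adjusted p = 0.00343), against 0.489% of genes, and without Cre male library 2 the median over the members was -0.14.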

How the data were processed

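The values are raw counts of reads per gene (Ensembl identifiers) in 24 libraries, deposited by the authors as whole numbers without scaling, per the file headers and the values. The submitters' processing notes name Bowtie2 2.1.0, TopHat2 2.0.9, HTSeq 0.6.0 and the builds NCBIM37 and mm9. Whether reads were counted by strand is not given in the sources used here, so the counts of the 11 members that overlap a gene on the opposite strand (Folr1, Kcnj13, Slc16a8, Enpp2, Igf2, Rarres2, F5, Ace, Calml4, Otx2 and Tmem212) may hold reads of both. Symbols, overlaps and exon lengths came from GENCODE M21, matched by Ensembl identifier, which gave a symbol for 32919 of 37991 genes.

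Wild-type and floxed libraries, which differ in genotype, virus and depth, were fitted apart in R 4.3.3 with edgeR 4.0.16 (filterByExpr, TMM, quasi-likelihood test with a mean per group, Benjamini-Hochberg adjustment over all genes tested, called at an adjusted p below 0.05). After the filter 15249 genes with 32 members (all but Lmx1a and Tmem212) and 17597 genes with 31 members (all but Kcnj13, Steap1 and Lmx1a) were tested. The script was tested on simulated data with known changes. Alternatives were DESeq2 1.42.0, DESeq2-type size factors in edgeR, no filter, a replicate block, a fit of only the groups compared, and leaving out each library. Within a group no libraries agreed within counting noise (chi-square per gene of 6.87 to 57.3). Same-numbered libraries deviated together in wild-type females (correlations of 0.334 to 0.592) but not in every pair of wild-type males (0.0859 to 0.341) or of floxed females (-0.452 to 0.0857) and males (-0.109 to 0.109).

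The members and all lists were chosen with earlier results of these data known. Values in every library are given for Ttr, Foxj1, Enpp2 and Otx2, for the 4 members of highest mean CPM in each list by role, and for the 3 of smallest p in each comparison. Up to 3 genes of smallest p are named from each list of other genes described. With 3 libraries per group, the precision is set by the spread between libraries.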

Additional observations from a re-analysis of the deposited data

How the results depend on the processing

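The count of members called in Cre against GFP males was 0 with edgeR and 14 with DESeq2, and from 0 to 15 in the fits that leave out a library. For the difference in the Cre effect between the sexes DESeq2 called 4 members and for sex in floxed mice 1, against 0 with edgeR, and the cause of these gaps was not tested. In the other 125 combinations of a comparison and an alternative the count was 0, as in the report. In both stress comparisons 0 members were called under every alternative run. With the replicate block, run for the 6 comparisons other than sex, 0 members were called. The median log2 was then 0.31 for stress in females, -1.91 for stress in males and 1.39 for Cre in males. No label says what a library number marks, so the block is not a known pairing. For the members tracked under each alternative, directions changed only where a library was left out. The log2 differences then ran from -0.38 to 0.12 for Foxj1, -0.10 to 0.90 for Otx2 and -0.071 to 1.93 for Mia (stress in females), from -0.093 to 0.47 for Foxj1 (difference in the stress effect) and from -0.65 to 0.34 for Otx2 (sex in wild-type mice). In floxed mice they ran from -1.15 to 0.058 for Ttr and -0.56 to 0.55 for Otx2 (Cre in females), from -0.00183 to 0.43 for Foxj1 (difference in the Cre effect) and from -0.61 to 0.52 for Otx2 (sex). Scaling by total counts in place of TMM left the summed level of the members and of the cilia genes in each group within 1 SD. Mia had no value for stress in females in the fit of only the groups compared. Genes below 1 CPM rest on few reads in the wild-type libraries, where depth limits them most.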
